A study of Rattus norvegicus with 9 samples.

Results

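Hippocampal RNA of rats labelled ChryM, for chrysophanol, was compared with that of healthy control rats labelled Ctrl. The comparison used 6 of the 9 libraries in the series, 3 ChryM and 3 Ctrl, and tested 6820 of the 30562 genes in the count table, those that passed a filter on low counts. All rats were male Sprague-Dawley rats of 6 to 8 weeks at the start. The study's protocol makes a diabetic and depression-like state with a high-fat diet for 4 weeks, 1 intraperitoneal injection of streptozotocin at 50 mg/kg, which destroys insulin-producing beta cells, a fasting glucose of at least 16.7 mmol/L and then chronic unpredictable mild stress for 5 weeks. The series' design text speaks of oral chrysophanol for 14 days. The labels give no dose or vehicle, and the sample labels do not say in words that ChryM rats went through the diabetes and stress protocol. If they did, chrysophanol, diabetes and stress cannot be told apart in ChryM against Ctrl. The 3 untreated disease-model libraries, labelled Model, took no part in the tests. Their levels are printed beside some genes as values only, because any comparison of Model with Ctrl would share the same controls. No label ties a library to a separate animal, so every p-value rests on differences among libraries that could be technical repeats.

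Chrysophanol is a plant anthraquinone known from rhubarb. The hippocampus holds pyramidal and granule neurons, interneurons, myelin-forming oligodendrocytes, astrocytes and microglia, and lies against the choroid plexus, the epithelium that makes cerebrospinal fluid and secretes transthyretin. Hippocampal tissue from stressed or diabetic rodents is widely used to study mood, memory, insulin action and inflammation in the brain.

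Count totals were low. They lay between 727070 and 807513 in Ctrl and between 767707 and 866048 in ChryM, and the gene in the middle of those tested had 24 to 29 counts in each. Differences between libraries of 1 group, per gene, were 1.29 to 2.48 times what counting alone gives, against 4.41 to 5.41 times for pairs from different groups, so no library was a copy of another. The first principal component, with 44.9% of the variance, had the Ctrl libraries at -18.2 to -16.5 and the ChryM libraries at 16.3 to 18.8. Markers of the hippocampal fields were present in both groups. The summed level of 12 CA1 markers was 419 to 485 CPM in Ctrl and 412 to 527 in ChryM. For 15 thalamic and habenular markers it was 44.6 to 59.1 and 39.1 to 42.9, with none abundant enough to test. For 14 striatal markers it was 146 to 186 and 151 to 165. For 19 neocortical markers it was 587 to 677 and 495 to 529, ranges that do not overlap. Of 9 neocortical markers tested, 2 fell and 0 rose (22.2% called, against 19% of all genes). How much neighbouring tissue each dissection carried was not measured. CPM are counts scaled to the library size. Sums over a list are scaled to the library total and cover every listed gene with a count, whereas levels of single genes are scaled to the library size after TMM.

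The strand setting used for counting is not given in the sources used here, although the library kit keeps strand. Some levels per length (FPKM) were unusual for the brain. Mt-nd6, the mitochondrial mRNA encoded on the strand opposite to the others, stood at 36310 ± 14440 FPKM (SD, n = 3) in Ctrl, while the other mitochondrial mRNAs had means of 1764 to 7693. Slc1a2, the main glutamate transporter of astrocytes, stood at 6.60 ± 1.00 FPKM. Nr1d1, which overlaps Thra on the opposite strand, had 951 FPKM against 142 for Thra. These values do not settle which strand of each gene was counted. All levels, folds and count totals below are of the deposited counts, and whether these are of sense or of opposite-strand reads was not determined. Reads of a gene and of its opposite-strand partner cannot be told apart. Besides the tested genes for which an opposite-strand gene is given with their values, RefSeq (GRCr8) lists one for Slc13a4, Mbp, Syt1, Syn2, App, Hspd1 and Atp6v1a.

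Of the 6820 genes tested, 1293 passed edgeR's quasi-likelihood test at a Benjamini-Hochberg adjusted p under 0.05, which is 19%. ChryM was higher in 633 of them (9.28%) and lower in 660 (9.68%). Most of these changes were modest. At least 2-fold changes among the passing genes numbered 58 upward (0.85%) and 138 downward (2.02%). The libraries of both groups did not overlap in 2184 genes (32%). The median log2 fold change over all genes tested was -0.02. Of the 8 named genes with the largest falls by the rule in the methods, Mfrp, Ttr, Clic6, Igf2, Cdkn1c, Slc13a4 and Igfbp2 are known from choroid plexus or meninges and Apold1 from vessels. The upward calls included 43 cytosolic ribosomal protein genes.

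**Figure D1:**
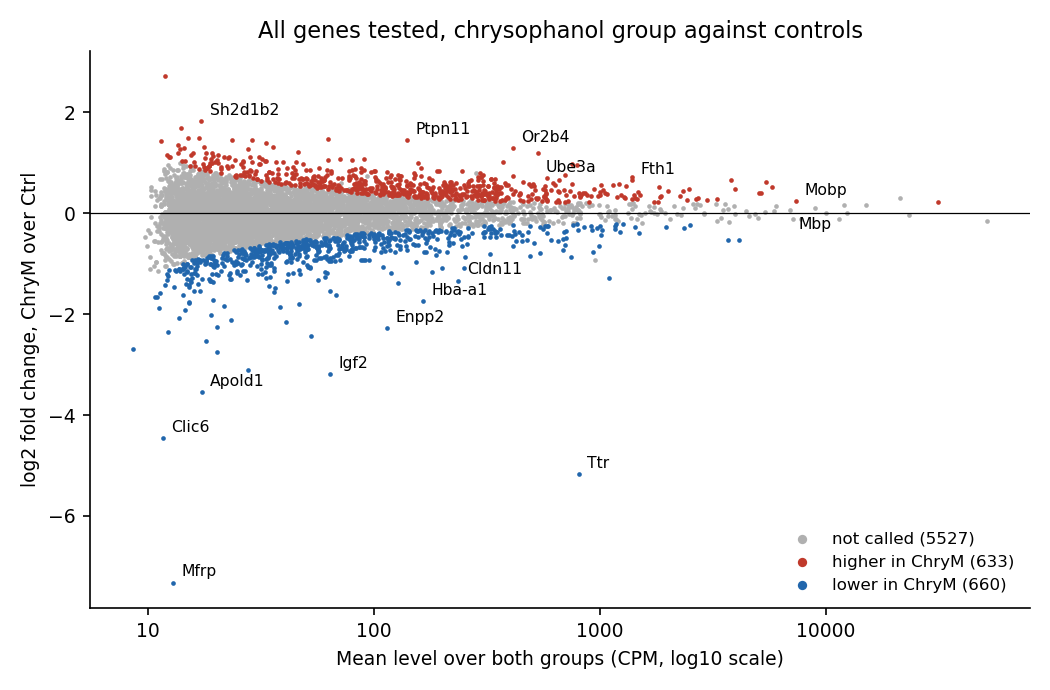
Log2 fold change of ChryM over Ctrl (vertical axis) against the mean level in CPM on a log10 scale (horizontal axis), 1 point per gene tested. Red points mark the 633 genes called higher, blue points the 660 called lower. Ttr, at a log2 fold change of -5.17, stands far below all other genes of its level.

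Transthyretin, the thyroid hormone and retinol carrier made by the choroid plexus, showed the clearest fall. Ttr was at 1594, 1536 and 1566 CPM in the 3 Ctrl libraries and at 47.5, 39.1 and 43.8 CPM in the 3 ChryM libraries. The groups lay far apart, and the spread within each was small. The log2 fold change was -5.17 ± 0.15 (SE; edgeR adjusted p = 6.2e-154), and the depth-corrected ratio of summed counts, 3587 in Ctrl and 101 in ChryM, was 37.2-fold (exact 95% interval 30.6 to 45.8, counting error only). No other annotated gene lies within 5 kb of Ttr. In the Model libraries Ttr was at 3.17 ± 0.35 CPM (SD, n = 3).

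Of 22 choroid plexus markers listed, 6 had enough counts to test, and 5 fell and none rose (83.3% called, against 19% of all genes). The median log2 fold change was -3.44, against -0.02 over all genes. At an unadjusted p under 0.05 the count of risen markers was also 0, and DESeq2 and limma-voom found none. DESeq2 called 3 lower and limma-voom 5. Mfrp, a membrane frizzled-related protein, had 59 counts in Ctrl and 0 in ChryM, at least 20.6-fold lower with 3 counts taken as the limit over the group. Clic6, a chloride channel protein of that epithelium, had 51 counts against 2, a ratio of 26.7 (95% interval 7.03 to 227). Mfrp and Clic6 passed the count filter only through the Ctrl libraries, so once tested they could only fall. The count of 5 and the median are partly set by that filter. Enpp2, which encodes autotaxin and is also made by oligodendrocytes, was at 187, 181 and 199 CPM in Ctrl and at 41.1, 33.2 and 42.4 CPM in ChryM (log2 fold change -2.28 ± 0.17 SE, edgeR adjusted p = 3.2e-37). Igfbp2, an IGF-binding protein, went from 89.0 ± 8.54 to 16.3 ± 1.46 CPM (SD, n = 3 each; edgeR adjusted p = 1.5e-21). Summed over the list, the markers held 1942 to 1992 CPM in Ctrl and 133 to 156 CPM in ChryM, so the groups did not overlap. In bulk tissue, fewer cells of a type and less RNA per cell cannot be told apart, and how much choroid plexus each dissection carried was not measured.

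Some genes of the meninges and of blood fell too. Of 21 listed genes of meninges and fibroblast matrix, 4 had enough counts to test and 3 of them fell (75% called, against 19% of all genes). Igf2, the insulin-like growth factor that leptomeninges and choroid plexus secrete, stood at 99.3, 108 and 138 CPM in Ctrl and at 10.3, 11.8 and 15.5 CPM in ChryM. Even the highest ChryM library was far below the lowest Ctrl library (log2 fold change -3.19 ± 0.28 SE, edgeR adjusted p = 1.2e-33). Cdkn1c, an imprinted inhibitor of the cell cycle, had 81 counts in Ctrl and 12 in ChryM, a ratio of 7.08 (95% interval 3.84 to 14.3). Igfbp5 fell to 19.3 ± 2.35 from 53.8 ± 6.67 CPM (edgeR adjusted p = 7.1e-08), and Slc13a4, a sulfate transporter, had 34 and 5 counts. Igf2 and Slc13a4 passed the count filter only through Ctrl, which favours falls in the count of this list. Alpha-globin (Hba-a1) was at 253, 254 and 252 CPM in Ctrl and at 77.1, 80.5 and 69.2 CPM in ChryM, and beta-globin (Hbb) fell from 95.1 ± 14.8 to 32.8 ± 4.17 CPM (log2 fold changes -1.74 and -1.53). Globin genes have near-identical copies, so the split of reads among them is uncertain. Both globins were the called members of 4 tested blood genes (50% called), and the other 2 had positive log2 fold changes of up to 0.59 that did not pass. The 7 listed blood genes with a count summed to 391 to 432 CPM in Ctrl and 146 to 191 CPM in ChryM. Apold1, an endothelial early-response gene, had 73 counts in Ctrl, 6 in ChryM and 56 in Model, a Ctrl to ChryM ratio of 12.8 (95% interval 5.59 to 35.9). Whether these falls share a source with the choroid plexus genes was not tested.

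**Figure D2:**
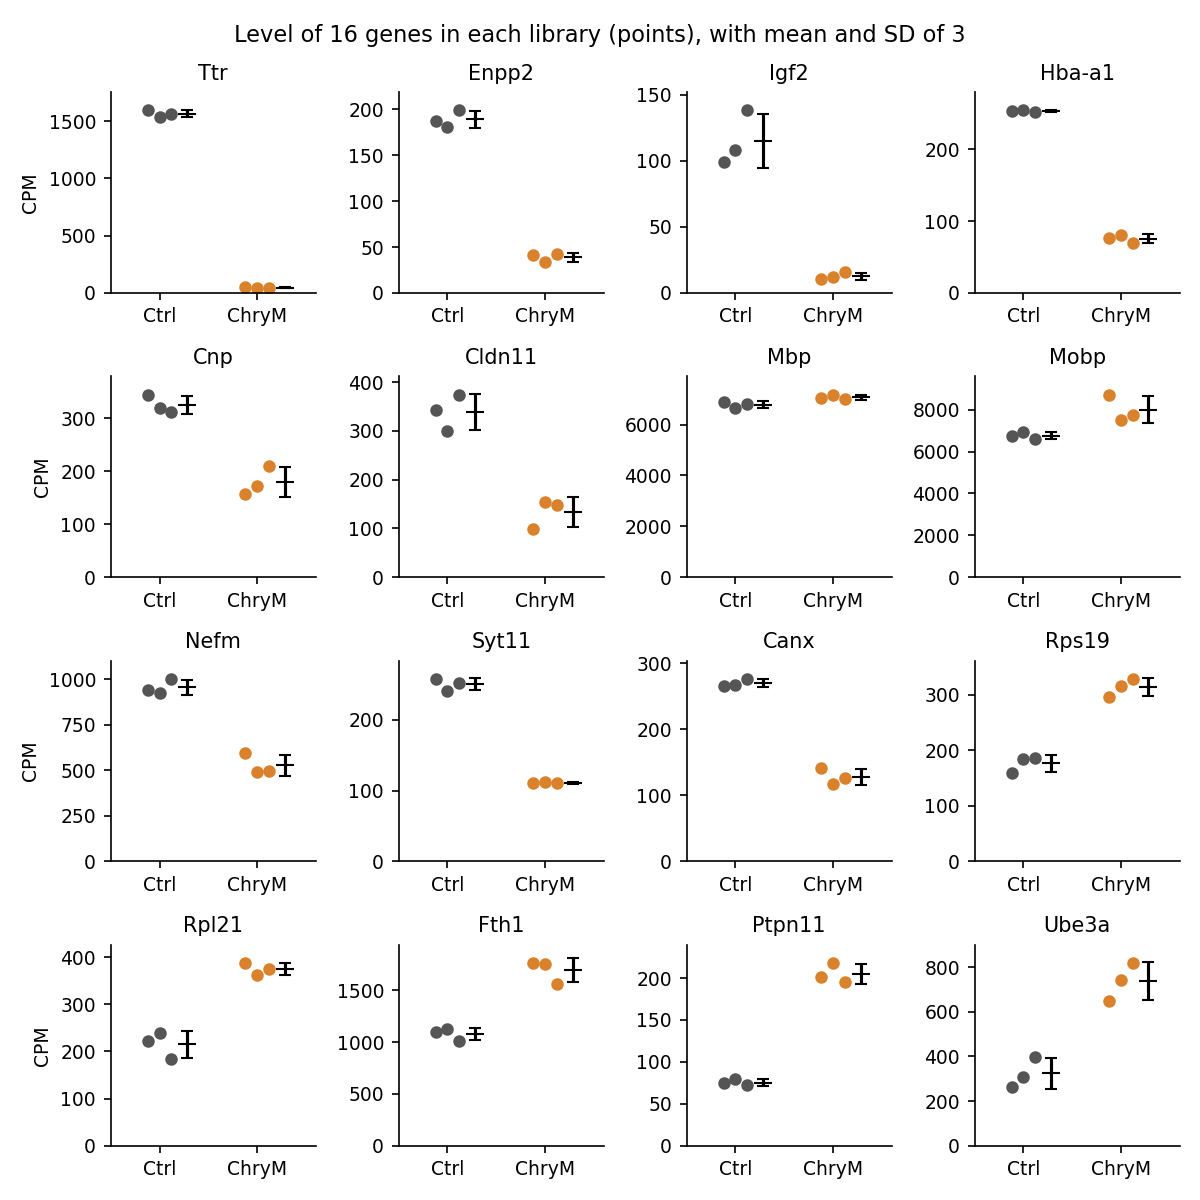
Level in CPM (vertical axes, from 0) of 16 genes in each Ctrl and ChryM library (points), with the mean and SD of 3 libraries beside them. Ttr is at 1536 to 1594 CPM in Ctrl and 39.1 to 47.5 CPM in ChryM, while Mbp lies between 6652 and 7183 CPM in all 6 libraries.

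Myelin genes split. Of 21 tested genes of oligodendrocytes and myelin, 12 fell and 2 rose (66.7% of the list called, against 19% of all genes), with a median log2 fold change of -0.37. Cldn11, the tight-junction claudin of the myelin sheath, was at 343, 300.3 and 375 CPM in Ctrl and at 98.9, 154 and 148 CPM in ChryM (-1.34 ± 0.11 SE on the log2 scale, edgeR adjusted p = 5.4e-27). Every ChryM library was below every Ctrl library. Ugt8, the enzyme that makes galactocerebroside, had a log2 fold change of -2.15 ± 0.27, and the tetraspanin Tspan2, which overlaps Tshb on the opposite strand, one of -1.33 ± 0.20. Cnp, the myelin phosphodiesterase, fell from 325 ± 17.3 to 179.6 ± 27.7 CPM, and Mal, a raft protein of compact myelin, from 215 ± 11.9 to 126 ± 0.898 CPM.

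Other myelin genes did not follow. Mbp, myelin basic protein, was at 6889, 6652 and 6821 CPM in Ctrl and at 7039, 7183 and 6992 CPM in ChryM, a log2 fold change of 0.06 ± 0.08 that did not pass (edgeR adjusted p = 0.65). Mobp, another basic protein of compact myelin, was at 6738, 6955 and 6614 CPM in Ctrl and at 8732, 7512 and 7740 CPM in ChryM. Its groups did not overlap, and it rose by 0.24 ± 0.08 on the log2 scale (edgeR adjusted p = 0.016), but the call was lost without Ctrl 1 (0.093), without ChryM 1 (0.23) in the tests on log2 FPKM and against a minimum of 1.5-fold. Qdpr, a dihydropteridine reductase listed among oligodendrocyte genes, rose by 0.90 ± 0.15. Bcas1, a marker of newly formed myelinating oligodendrocytes, rose from 974 ± 22.6 to 1456 ± 103 CPM (0.58 ± 0.08, edgeR adjusted p = 1.1e-10). Gpr17, a receptor of committed precursors that overlaps Lims2 on the opposite strand, had 69 counts in Ctrl and 21 in ChryM (ratio 3.44, 95% interval 2.09 to 5.91). Summed over the list, myelin genes held 16300.0 to 17510 CPM in Ctrl and 15710 to 17120 CPM in ChryM, ranges that overlap. Mbp and Mobp make up most of this sum and neither fell, so it says little about the other members. DESeq2 called 7 of the list lower rather than 12.

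**Figure D3:**
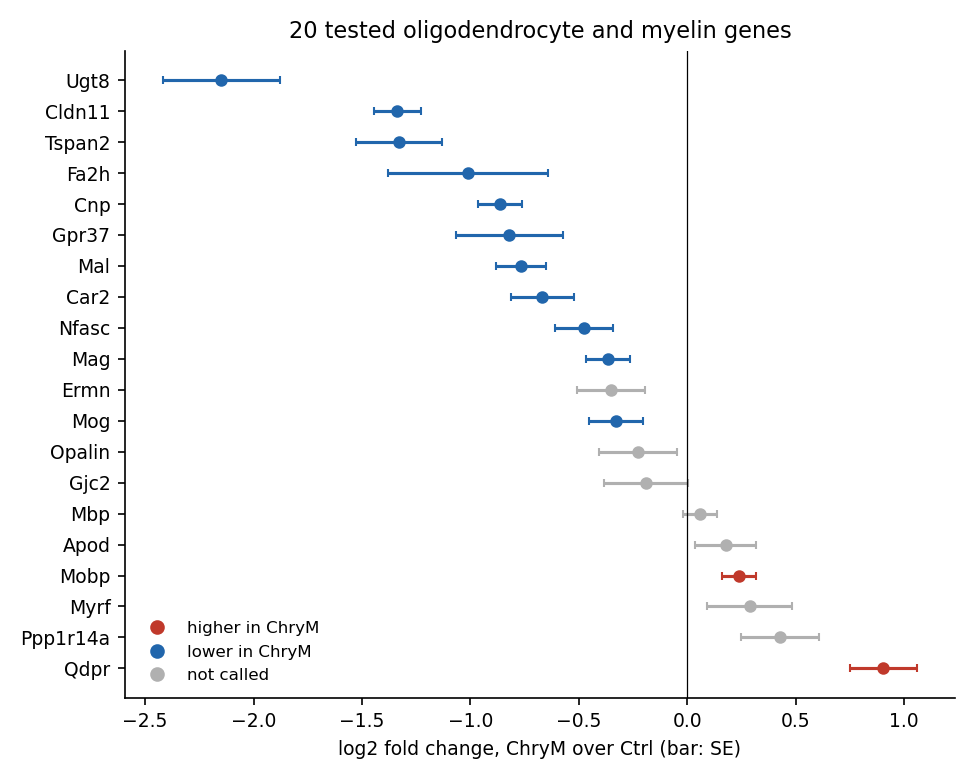
Log2 fold change of ChryM over Ctrl (horizontal axis) with its SE (bars) for 20 of the 21 tested oligodendrocyte and myelin genes, 1 gene per line. Blue points are lower, red points higher and grey points not called. Ugt8 is lowest at -2.15, Mbp is close to 0 and Qdpr is highest at 0.90.

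Of 22 tested astrocyte genes, 9 fell and 2 rose (50% called, against 19% of all genes), with a median log2 fold change of -0.30. Aqp4, the water channel of astrocyte endfeet, was at 122, 127 and 125 CPM in Ctrl and at 59.1, 73.4 and 62.1 CPM in ChryM, without overlap (-0.94 ± 0.15, edgeR adjusted p = 6.1e-08). Slc1a3, the glutamate transporter GLAST, fell from 119 ± 16 to 63.3 ± 10.7 CPM. Gfap, the intermediate filament of astrocytes, fell from 493 ± 66.7 to 380.5 ± 5.32 CPM (-0.38 ± 0.09, edgeR adjusted p = 0.00047). Clusterin (Clu), a secreted chaperone, fell by 0.38 on the log2 scale. Mt3, the brain metallothionein, went the other way, from 318 ± 10.2 to 469 ± 29.6 CPM (0.56 ± 0.09, edgeR adjusted p = 1.3e-07). The lipid carrier Apoe, which astrocytes and microglia secrete, rose from 4360 ± 84.7 to 5734 ± 68.7 CPM (0.40 ± 0.08, edgeR adjusted p = 1.2e-05).

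Of 9 tested microglial genes, 2 fell and none rose, a called share of 22.2% that is near the 19% of all genes. DESeq2 called 1 higher and 0 lower, and 1 rose at an unadjusted p under 0.05. Cd74, the invariant chain of MHC class II, had 51 counts in Ctrl and 12 in ChryM (ratio 4.46, 95% interval 2.34 to 9.18). The other fall, C1qa, was lost without ChryM 1 (edgeR adjusted p = 0.097). B2m, the light chain of MHC class I and not in the microglial list, was at 118, 129.6 and 104 CPM in Ctrl and 66.8, 53.3 and 66.4 CPM in ChryM (-0.93 ± 0.15, edgeR adjusted p = 1.9e-07). Psmb9, an interferon-induced proteasome subunit, had 38 and 12 counts. Aif1, which encodes the microglial marker Iba1, was at 17.6 ± 2.62 CPM in Ctrl and 14.1 ± 1.35 CPM in ChryM and did not pass (edgeR adjusted p = 0.6). The cytokine genes Tnf and Il1b were too low to test.

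Of 27 tested neuronal genes of the synaptic vesicle and active zone, 13 fell and 1 rose (51.9% called, against 19% of all genes; median log2 fold change -0.26). Syt11, a synaptotagmin that does not bind calcium, was at 258, 240.5 and 252 CPM in Ctrl and at 110.5, 113 and 110.2 CPM in ChryM, every library below every control (-1.17 ± 0.12, edgeR adjusted p = 4.5e-19). Cplx2, the complexin that clamps vesicle fusion, was at 211, 204 and 195 CPM in Ctrl and at 107, 102 and 105 CPM in ChryM (-0.97 ± 0.12, edgeR adjusted p = 2.2e-12), with non-coding genes annotated on its opposite strand. Syt1, the calcium sensor of fast release, fell by 1.21 ± 0.21 on the log2 scale, Syn2 by 0.86 and Sv2b by 0.84. Snap25, a SNARE of the plasma membrane, was at 1207 ± 78.2 and 1123 ± 31.7 CPM and did not pass (edgeR adjusted p = 0.38). The count of 13 fell to 8 without ChryM 2, to 8 without ChryM 3 and to 8 with the length trend removed, and DESeq2 called 5.

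At the postsynaptic side, 5 of 23 genes fell and 3 rose (34.8% called, against 19% of all genes). Dlg4, the scaffold PSD-95, fell from 299 ± 14.4 to 191 ± 17.1 CPM (-0.65 ± 0.10, edgeR adjusted p = 4.3e-08), and the AMPA receptor subunit Gria1 from 81.6 ± 8.25 to 42.8 ± 16.4 CPM (edgeR adjusted p = 3.6e-05). Arc, an activity-induced gene of the dendrite, was at 21.4, 17.4 and 14.4 CPM in Ctrl and at 38.5, 41.5 and 36.7 CPM in ChryM, a rise of 1.12 ± 0.27 (edgeR adjusted p = 0.00042). The Model libraries had 18.3 ± 3.11 CPM. Arc was the 1 gene called of 10 tested immediate early genes, a share of 10% that is below the 19% of all genes. None of 8 tested GABA receptor and chloride transporter genes passed, by edgeR, DESeq2 or limma-voom, although 4 were lower at an unadjusted p under 0.05 and the median log2 fold change was -0.41. Cnr1, the cannabinoid receptor carried by many interneurons, fell to 22.3 ± 8.41 from 50.2 ± 9.17 CPM (edgeR adjusted p = 3.3e-05). Htr2c, the serotonin 2C receptor that the choroid plexus also makes in quantity, had 55 and 16 counts (ratio 3.6, 95% interval 2.04 to 6.74).

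Of 29 tested genes of neurofilaments, synucleins and microtubules, 6 fell and 2 rose (27.6% called, against 19% of all genes). The risen ones were Kif5a and Dync1h1, and DESeq2 called 4 lower and 0 higher. Both smaller neurofilament genes fell. Nefm, the medium chain, was at 943, 926 and 1003 CPM in Ctrl and at 595, 494 and 494 CPM in ChryM (-0.86 ± 0.08, edgeR adjusted p = 1.2e-19), and at 936 ± 58.6 CPM in Model. Nefl, the light chain, fell from 851 ± 24.4 to 551 ± 37.3 CPM (edgeR adjusted p = 3.4e-11). Nefh, the heavy chain, did not pass (-0.18, edgeR adjusted p = 0.16). Map2, the dendritic microtubule protein, fell by 1.07 ± 0.20 and Kif5c, a kinesin heavy chain, by 0.96 ± 0.18, whereas Mapt, which encodes tau, was at 273 ± 31.8 and 258 ± 25.3 CPM and did not pass (edgeR adjusted p = 0.66). App, the amyloid precursor, was at 1216, 1256 and 1168 CPM in Ctrl and at 739, 815 and 781 CPM in ChryM, without overlap (-0.64 ± 0.08, edgeR adjusted p = 1.7e-12).

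Markers of the hippocampal fields gave few calls. Wfs1, a CA1 marker, was at 77 ± 17.4 CPM in Ctrl and 88.3 ± 13 CPM in ChryM (edgeR adjusted p = 0.43), with 25.8 ± 4.19 CPM in Model. Necab1, a neuronal calcium-binding protein, was at 2199 ± 206 and 2184 ± 49.9 CPM (edgeR adjusted p = 0.95), with 3874 ± 50.1 CPM in Model. None of 7 dentate granule cell genes passed by edgeR (against 19% of all genes), DESeq2 or limma-voom, and 3 were lower at an unadjusted p under 0.05. Tbr1, a transcription factor of cortical glutamatergic neurons, had 63 and 25 counts (ratio 2.64, 95% interval 1.64 to 4.38).

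**Figure D4:**
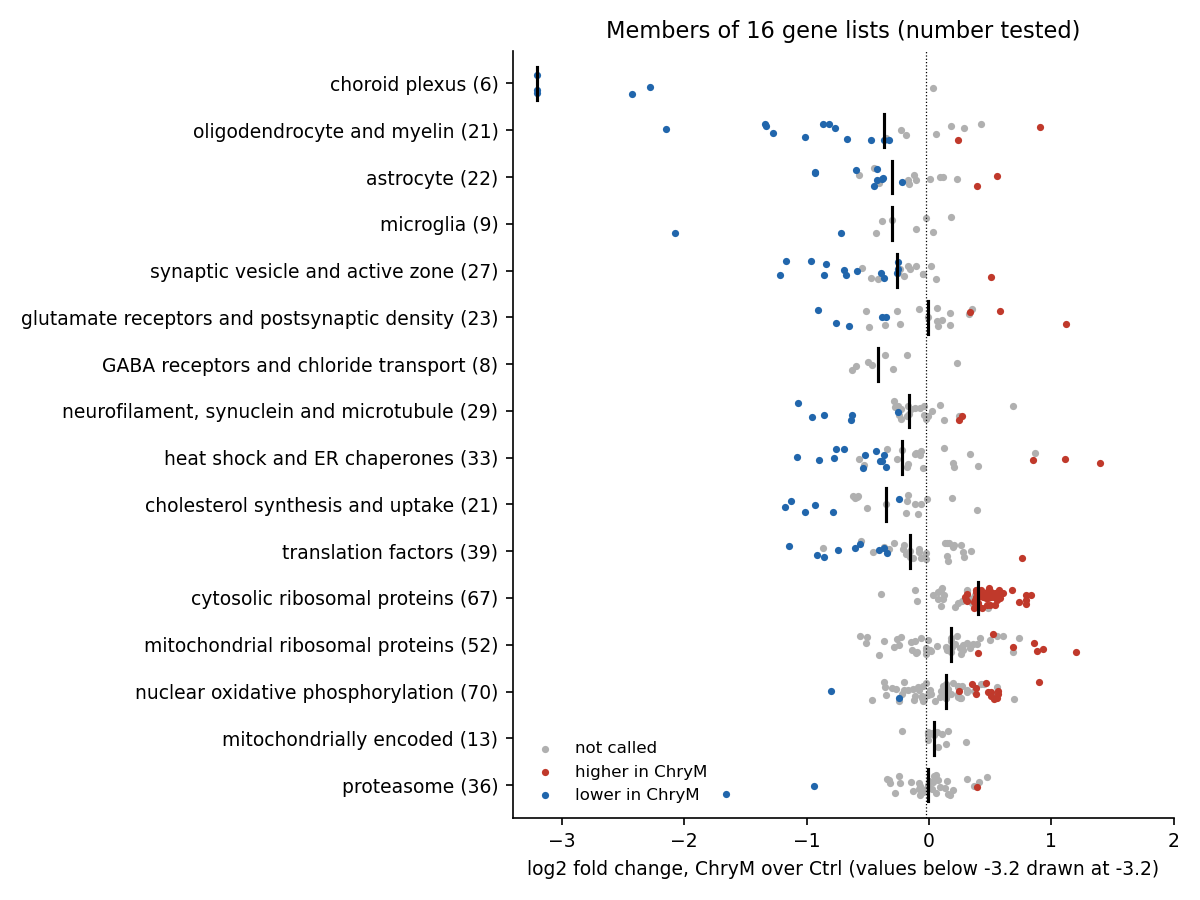
Log2 fold change of ChryM over Ctrl (horizontal axis) of every tested member of 16 gene lists, 1 list per line with the number tested. Red and blue points were called higher and lower, black bars are list medians and the dotted line is the median of all genes tested. Cytosolic ribosomal proteins have a median of 0.40 and choroid plexus genes one of -3.44, drawn at the left edge.

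Most tested ribosomal protein genes rose. Of 67 tested cytosolic ribosomal protein genes, 43 rose and none fell (64.2% called, against 9.28% of all genes called higher), 64 had a positive log2 fold change, and the median was 0.40. At an unadjusted p under 0.05 none fell either, and DESeq2 and limma-voom called 37 and 43 higher and none lower. Together the 82 listed genes held 12660 to 13650 CPM in Ctrl and 16300.0 to 17020 CPM in ChryM, ranges that do not overlap. Rps19, a small-subunit protein, was at 159.7, 184 and 186 CPM in Ctrl and at 297, 316 and 329 CPM in ChryM (0.83 ± 0.10, edgeR adjusted p = 1.7e-12). Rpl21, of the large subunit, was at 222.5, 239 and 183 CPM in Ctrl and at 388, 362 and 374 CPM in ChryM (0.79 ± 0.10, edgeR adjusted p = 1.4e-12). Rps12 rose by 0.79, Rpl37 by 0.67 and Rpl26 by 0.58. In Model, Rps19 was at 201 ± 4.13 and Rpl21 at 217 ± 15 CPM. Ribosomal protein genes have many processed pseudogenes, so counts of single members are uncertain where reads map to copies. They are also short, with a median length of 1131 bases against 3313.5 for all genes tested, and with a length trend removed from each library 32 rose and none fell.

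Genes of the translation machinery begin transcription at a run of pyrimidines, the 5′ TOP motif, through which growth signals set their translation. Start regions of a pair of risen genes are printed from RefSeq (GRCr8), 120 bases before the annotated start and 30 from the start base on, to show where the searched letters CTTTCC (either strand, in capitals) lie. They cover chr1:89608568-89608717 (+ strand) for Rps19 and chr12:13386124-13386273 (- strand) for Rpl21.
Rps19: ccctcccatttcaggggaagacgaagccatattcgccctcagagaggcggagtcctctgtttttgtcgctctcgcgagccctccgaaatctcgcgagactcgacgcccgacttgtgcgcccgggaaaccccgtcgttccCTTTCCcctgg
Rpl21: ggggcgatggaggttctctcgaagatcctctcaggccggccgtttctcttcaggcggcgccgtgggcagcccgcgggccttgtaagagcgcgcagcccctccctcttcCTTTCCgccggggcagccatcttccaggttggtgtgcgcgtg
In windows of 300 bases around the start, CTTTCC was present in 25 of the 54 tested ribosomal genes with an entry (46.3%), in 19 of the 36 that rose (52.8%) and in 26.4% of all 33469 promoters in the table. The word starts 19 bases after the start base of Rps19 and 12 bases before that of Rpl21. A match describes the sequence and is not evidence of use.

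Other parts of protein synthesis gave fewer calls. Of 52 tested mitochondrial ribosomal protein genes, 7 rose and none fell (13.5% called, below the 19% of all genes; median 0.18), with Mrpl16, which overlaps Stx3, at 278 ± 35.5 and 399 ± 28.7 CPM (edgeR adjusted p = 2.3e-06). At an unadjusted p under 0.05, 1 fell, and DESeq2 and limma-voom called none lower. Without ChryM 2 the count of 7 was 4. Of 39 tested translation factors, 9 fell, 1 rose and 29 did not pass (25.6% called; median -0.15). Eif4g1, the scaffold of the cap-binding complex, fell from 85.1 ± 6.64 to 46.9 ± 3.64 CPM (edgeR adjusted p = 5.2e-05), and Eif1ax, an initiation factor, from 36.9 ± 3.56 to 16.8 ± 7.87 CPM. The count of 9 was 4 without Ctrl 1 and 5 without ChryM 2, and DESeq2 called 1.

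Of 70 tested nuclear genes of oxidative phosphorylation, 13 rose and 2 fell (median 0.14), a called share of 21.4% that is near the 19% of all genes. Cox6a1, a subunit of cytochrome c oxidase, was at 178.5, 169 and 197.5 CPM in Ctrl and at 265, 271 and 268 CPM in ChryM, without overlap (0.56 ± 0.11, edgeR adjusted p = 4.6e-06). Cox5b rose by 0.48 ± 0.11 and Ndufb7, of complex I, by 0.56 ± 0.13. The count of 13 was 7 without Ctrl 2 and 6 without ChryM 2, and 5 with DESeq2. It was also 5 with libraries scaled to their totals. None of the 13 mitochondrially encoded mRNAs passed edgeR's test, with 1 higher and 1 lower at an unadjusted p under 0.05, while DESeq2 and limma-voom each called 2 higher.

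Of 22 tested genes of glycolysis and glucose transport, 6 fell, 2 rose and 14 did not pass (36.4% called, against 19% of all genes). Ldha, a lactate dehydrogenase subunit, was at 183.5, 199 and 173 CPM in Ctrl and at 116, 136 and 107 CPM in ChryM (-0.63 ± 0.12, edgeR adjusted p = 9.3e-06), and Pkm, the pyruvate kinase, fell from 303.5 ± 45.2 to 218.5 ± 14.3 CPM. Slc16a13, a monocarboxylate transporter that overlaps Slc16a11, rose from 511.9 ± 42.6 to 756 ± 43.3 CPM (edgeR adjusted p = 6.3e-09). The count of 6 was 4 without Ctrl 2 and 4 without ChryM 3, and DESeq2 called 2.

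Of 21 tested genes of cholesterol synthesis and uptake, 6 fell and none rose by edgeR, DESeq2 or limma-voom or at an unadjusted p under 0.05 (28.6% called, against 19% of all genes; median -0.35). Hmgcs1, which makes the precursor of mevalonate, was at 157, 167 and 172 CPM in Ctrl and at 65.5, 81.7 and 70.6 CPM in ChryM, without overlap (-1.18 ± 0.14, edgeR adjusted p = 3.6e-14). Cyp51, the lanosterol demethylase, fell from 64 ± 3.12 to 29.3 ± 4.27 CPM (edgeR adjusted p = 4.2e-06). The count of 6 was 3 without Ctrl 1, 2 without ChryM 2 and 3 without ChryM 3, and DESeq2 called 2. The sterol word CACCCCAC, searched in the same 300-base windows, was in 0 of the 16 tested genes of this list with an entry. It was in 0 of the 4 called ones and in 2.7% of all 33469 promoters.

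Of 33 tested chaperone genes, 12 fell and 3 rose (45.5% called, against 19% of all genes; median -0.22). The risen ones were Cryab, Hspa1a, a stress-induced HSP70, and Hsf1, which encodes the heat shock factor. Canx, the calnexin of the endoplasmic reticulum, was at 267, 268 and 277 CPM in Ctrl and at 141, 117 and 126 CPM in ChryM (-1.08 ± 0.11, edgeR adjusted p = 1.5e-17), with a non-coding gene on its opposite strand. Hspa4, a large HSP70, fell from 210.1 ± 13.3 to 123 ± 8.23 CPM, Hsp90ab1, the constitutive HSP90, from 1395 ± 41.3 to 1071 ± 33.3 CPM and Hspd1, the mitochondrial HSP60, from 76.2 ± 6.65 to 40.6 ± 15.1 CPM. Cryab, a small heat shock protein of oligodendrocytes and astrocytes that overlaps Hspb2, rose from 18.3 ± 3.77 to 48.2 ± 8.52 CPM (1.40 ± 0.26, edgeR adjusted p = 1.3e-06), with 17.6 ± 3.34 CPM in Model. The count of 12 was 7 without Ctrl 1, and DESeq2 called 6.

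Heat shock genes carry repeated GAA units where the heat shock factor HSF1 binds. A pair of fallen genes with such a word near the start are printed in the same way, chr12:10427248-10427397 (+ strand) for Hsph1, an HSP110, and chr5:60638284-60638433 (+ strand) for Dnaja1, an HSP40, with matches to GAA, any 2 bases, TTC, any 2 bases and GAA, on either strand, in capitals.
Hsph1: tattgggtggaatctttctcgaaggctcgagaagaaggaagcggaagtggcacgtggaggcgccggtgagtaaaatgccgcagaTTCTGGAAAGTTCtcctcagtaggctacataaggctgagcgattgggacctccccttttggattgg
Dnaja1: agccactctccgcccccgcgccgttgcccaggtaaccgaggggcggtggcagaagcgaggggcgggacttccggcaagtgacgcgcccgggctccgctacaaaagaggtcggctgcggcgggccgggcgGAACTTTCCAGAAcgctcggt
The word was found in 5 of the 26 tested chaperone genes with an entry (19.2%), in 3 of the 9 that fell or rose (33.3%) and in 0.798% of all 33469 promoters. Of the genes with the word, Dnaja1, Hspd1 and Hsph1 fell, while Hspa8 and Hspe1 were not called. A match is not evidence of use, and Hspa1a and Hsf1 themselves rose. Hsph1 fell from 183 ± 11.0 to 142 ± 18.3 CPM and Dnaja1 from 155 ± 12.8 to 106.5 ± 10.4 CPM (log2 fold changes -0.37 ± 0.12 and -0.54 ± 0.13, edgeR adjusted p = 0.014 and 0.00047). The call of Hsph1 was lost without Ctrl 1 (0.097), without ChryM 2 (0.176), without ChryM 3 (0.0725), with DESeq2 (0.212), with no count filter (0.0827), on log2(FPKM + 1) (0.0895), on log2(FPKM + 0.1) (0.091), with the length trend removed (0.0951) and against a minimum of 1.5-fold (1.0).

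Single genes of signalling stood out among the rises. Ptpn11, which encodes the phosphatase SHP2 of the Ras pathway, was at 74.2, 79.7 and 72.1 CPM in Ctrl and at 202, 218 and 195 CPM in ChryM. The lowest ChryM library was far above the highest Ctrl library (1.44 ± 0.13, edgeR adjusted p = 1.5e-22), no other gene lies within 5 kb, and the Model libraries had 106 ± 6.67 CPM. In all, 2 of the 19 tested Ras and MAPK genes rose and 2 fell (21.1% called, near the 19% of all genes). Camk2n1, an inhibitor of CaMKII, rose from 302 ± 51.2 to 456.5 ± 13.3 CPM (0.60 ± 0.09, edgeR adjusted p = 1.9e-08), while the calmodulin genes Calm2 and Calm3 fell by 0.33 and 0.40 and Ppp3cb, a catalytic subunit of calcineurin, by 0.62. Cacna1h, a T-type calcium channel, rose from 71.1 ± 7.9 to 124 ± 15.4 CPM (edgeR adjusted p = 2.5e-06).

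Further rises with very small p-values had neighbours or unusual identities. Or2b4, annotated as an olfactory receptor, was at 231, 228 and 257 CPM in Ctrl and at 574, 542 and 633 CPM in ChryM (1.29 ± 0.09, edgeR adjusted p = 9e-33), with 681.5 ± 59 CPM in Model. Ube3a, the imprinted ubiquitin ligase of Angelman syndrome, was at 265, 308 and 398 CPM in Ctrl and at 649, 744 and 819 CPM in ChryM, without overlap (1.19 ± 0.09, edgeR adjusted p = 1.2e-27). A non-coding gene lies on its opposite strand. Alg3, a mannosyltransferase of N-glycan synthesis, rose from 505 ± 64.2 to 995 ± 14.3 CPM (0.98 ± 0.08), and Sgf29, a subunit of the SAGA complex that overlaps Dppa3l3 on the opposite strand, from 246 ± 13.3 to 495 ± 12.6 CPM (1.01 ± 0.09). Fth1, the heavy chain of the iron store ferritin, was at 1100.0, 1125 and 1012 CPM in Ctrl and at 1764, 1759 and 1562 CPM in ChryM (0.65 ± 0.08, edgeR adjusted p = 2.3e-13), with 965 ± 48.4 CPM in Model. Col4a2, a collagen of basement membranes, rose by 1.00 ± 0.12 on the log2 scale.

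The largest named rises were of low genes. Sh2d1b2, an adaptor known from natural killer cells, had 17 counts in Ctrl and 62 in ChryM (ratio 3.48, 95% interval 2.01 to 6.35), and Nup188, of the nuclear pore, had 15 and 50 (ratio 3.18, 95% interval 1.76 to 6.10). Gpatch4, an RNA-binding protein of the nucleolus, was at 26.4, 38.6 and 34.6 CPM in Ctrl and at 107, 78.2 and 93.2 CPM in ChryM, without overlap (1.47 ± 0.19, edgeR adjusted p = 1.3e-11), with 40.5 ± 4.58 CPM in Model.

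Of 13 tested genes of the glucocorticoid receptor and its targets, 4 fell and 1 rose (38.5% called, against 19% of all genes), and DESeq2 called 2 lower. The count of 4 was 1 without Ctrl 2, 2 without ChryM 1 and 2 without ChryM 3. Nr3c2, the mineralocorticoid receptor, fell from 56.6 ± 5.01 to 29.3 ± 9 CPM (-0.98 ± 0.22, edgeR adjusted p = 0.00017). Fkbp5, the glucocorticoid-induced co-chaperone, was at 33.1 ± 1.62 and 39.6 ± 7.29 CPM and did not pass (edgeR adjusted p = 0.48). Bdnf, the neurotrophin, was at 22.6, 31.1 and 24.5 CPM in Ctrl and at 25.7, 22.5 and 9.89 CPM in ChryM, overlapping groups (edgeR adjusted p = 0.36). Bad, a promoter of apoptosis that insulin signalling inhibits, fell from 418 ± 34.2 to 310.4 ± 12.5 CPM (edgeR adjusted p = 0.00012). Of 15 tested insulin and IGF genes, 4 fell and 1 rose (33.3% called, against 19% of all genes). The receptors Insr and Igf1r were too low to test, and the 3 largest falls were those of Igf2, Igfbp2 and Igfbp5, described with the choroid plexus and meninges.

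Levels also moved with gene length. The tested genes were split into 5 classes of equal size by length. In the shortest class (204 to 1907 bases) the median log2 fold change was 0.11, with 190 genes higher and 66 lower, and in the longest class (5644 to 41093 bases) it was -0.08, with 110 higher and 161 lower. All 3 ChryM libraries showed it, at 0.10 to 0.13 above the control mean in the shortest class. With the trend removed, 32 cytosolic ribosomal genes and 9 genes of oxidative phosphorylation were called higher and 8 synaptic genes lower. The trend was fitted on all genes tested, these included, so the counts do not give the part due to length. For myelin, 12 were lower and 2 higher with the trend removed. Why length mattered was not tested.

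**Figure D5:**
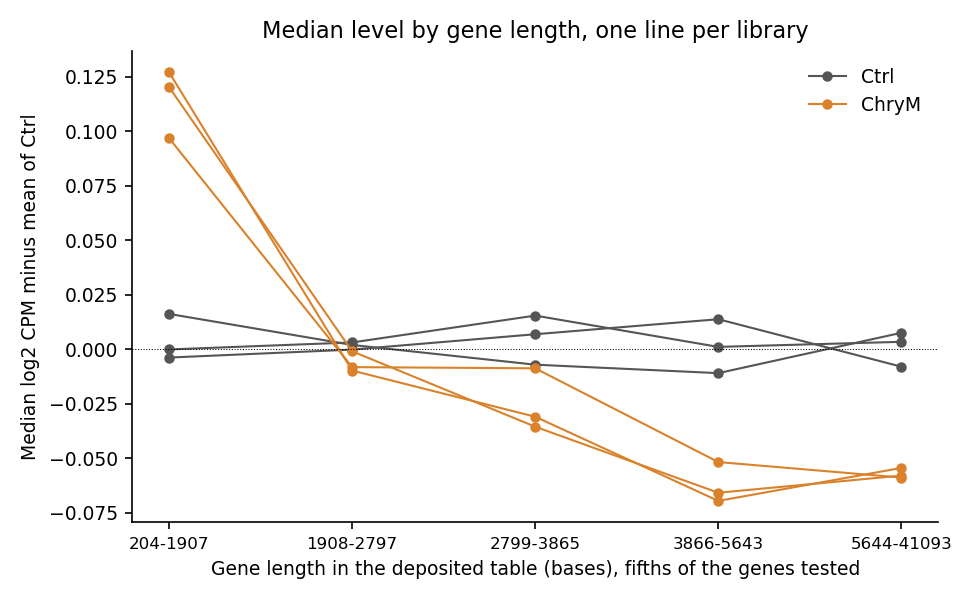
Median log2 CPM relative to the Ctrl mean (vertical axis) in 5 classes of the tested genes by length in bases (horizontal axis), 1 line per library. The ChryM lines run from 0.10 to 0.13 in the shortest class down to -0.06 to -0.05 in the longest, and the Ctrl lines stay near 0.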

How the data were processed

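Poly(A) RNA of hippocampus was sequenced from strand-keeping dUTP libraries, per the labels' protocols. The authors deposited raw counts per gene and a second table of FPKM, per the file headers. The submitters' processing notes name HISAT2 and DESeq2 with no version. Neither the counting tool nor its strand setting, build or annotation is given in the sources used here. Deposited FPKM equalled count over length and library total in 100% of values (tolerance 1e-09).

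Counts of the 6 ChryM and Ctrl libraries were filtered with filterByExpr and scaled by TMM (factors 0.953 to 1.03) in edgeR 4.0.16 (R 4.3.3). A gene could pass this filter through 1 group alone, and is then likely to be lower in the other. edgeR's quasi-likelihood test had 4 residual degrees of freedom, and p-values were adjusted over 6820 genes by Benjamini and Hochberg, with 0.05 as threshold. Levels of single genes are CPM after TMM, list sums use library totals, and Model levels come from a scaling of all 9 libraries. An SE is the larger of the test's and the counting error. Alternatives used DESeq2 1.42.0, limma 3.58.1 and log2 of the deposited FPKM plus 1 or 0.1. Symbols were matched to RefSeq (GRCr8) for 23434 IDs; 4367 IDs carried no name and held 21.99 to 24.55% of counts. On simulated data for this comparison (6820 genes, 50 of them changed at each fold), 70.2% of 2-fold and 22% of 1.5-fold changes were recovered, with 5 false calls. Far fewer genes were changed there than the 1293 called in the data, so recovery in the data may differ.

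Genes were named by rule: the 12 smallest p-values and 8 largest folds each way, up to 5 per list and a fixed panel. A few genes are not reported here. A few further list members are named in the text beside their calls. The gene lists and the rule were chosen with earlier results of these data known.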

Additional observations from a re-analysis of the deposited data

How the results depend on the processing

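In place of 1293 genes, DESeq2 called 548 (its own filter leaves low genes without an adjusted p), a test against a minimum of 1.5-fold called 63, log2(FPKM + 1) 828 and log2(FPKM + 0.1) 812. Genes over 5 kb from any other (1044 tested) gave 170 calls, 43 higher and 127 lower. Genes with no opposite-strand overlap (4649 tested) gave 789, with 354 higher and 435 lower. Both sets are smaller than the 6820 genes tested. The other alternatives, RLE, library totals, limma-voom, both count filters, all 9 libraries, a spread not made robust, a bound from counting error and the length trend removed, gave 1058 to 1329. The last 2 of these and the opposite-strand choice were added after seeing the data. The bound from counting error kept all 1293 calls and changed none, so it adds no separate check to the 22 alternatives. Leaving out 1 library gave 930 (without Ctrl 1) to 1250 calls. No named gene reversed. Upward calls were 49% with TMM, 38.9% with library totals (which put the median of all genes at -0.07), 67% with DESeq2, 57% with the length trend removed and 25.3% among genes over 5 kb from another. Deviations from the group mean were barely correlated between same-numbered libraries (-0.01, 0.01 and 0.05). On the second principal component (15.7% of the variance), however, Ctrl 3 lay at -14.4 and ChryM 3 at -13.8. The other libraries lay at 4.24 to 11.0. Whether libraries of the same number share a batch was not tested, and a fit with the replicate block called 1433 genes. Of 191 named calls, 39 held in every one of the 22 alternatives that gave the gene an adjusted p (17 for Slc13a4). With DESeq2 46 were lost, not counting genes to which it gave no adjusted p. When some library was left out, 67 were lost. With 24 to 29 counts for the median gene, changes under 1.5-fold were mostly beyond reach.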

Other observations

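Some further named genes belong to groups not described above. Of 59 tested splicing factors and hnRNPs, 4 rose and 6 fell, a called share of 17% that is near the 19% of all genes. Snrnp70, the U1 snRNP protein, was at 1042, 1059 and 1037 CPM in Ctrl and at 1760, 1724 and 1679 CPM in ChryM (0.72 ± 0.08, edgeR adjusted p = 4.5e-16), and no other gene lies within 5 kb of it. Hnrnpa1, which overlaps Cbx5 on the opposite strand, fell from 141 ± 12 to 91.6 ± 4.71 CPM, and Qki, the RNA-binding protein known for its part in myelin RNA processing, from 54.4 ± 8.39 to 27.2 ± 6.24 CPM (edgeR adjusted p = 0.00023).

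Of 30 tested V-ATPase and lysosomal genes, 5 fell and none rose by edgeR, DESeq2 or limma-voom, with 1 higher at an unadjusted p under 0.05. The called share of 16.7% is below the 19% of all genes. Atp6v1a, the catalytic subunit of the proton pump, fell from 83.9 ± 2.42 to 43.2 ± 3.84 CPM (edgeR adjusted p = 9.5e-06), and Psap, the saposin precursor that overlaps Cdh23, from 402.5 ± 25.4 to 289 ± 14.5 CPM. The count of 5 was 2 without Ctrl 2 and 3 without ChryM 1, 2 or 3. The imprinted gene Nnat, neuronatin, which lies within Blcap, was at 542 ± 2.29 CPM in Ctrl, 421 ± 9.4 CPM in ChryM (edgeR adjusted p = 0.00063) and 828 ± 39.5 CPM in Model. Sncg, gamma-synuclein, had 20 counts in Ctrl and 33 in ChryM (edgeR adjusted p = 0.28) against 212 in Model.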
